A study of Mus musculus with 6 samples.

Results

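The genes described here encode 6 enzymes that methylate lysine 9 of histone H3 (H3K9): Setdb1, Setdb2, Suv39h1, Suv39h2, Ehmt1 and Ehmt2. They were chosen by name as the family of Setdb2, the gene in the title of the series, and all 6 were found by symbol among the 55401 gene IDs of the count table. RNA of whole mouse kidneys was sequenced in 3 libraries labelled control and 3 labelled DKD, for diabetic kidney disease, and the series names histone methyltransferases in DKD as its subject. The labels list control and DKD as the genotype and name no allele. Strain, sex, age, diet and the way diabetes was brought about are not stated. Whether the libraries came from separate animals is not stated either, so a p-value here measures variation among 6 libraries that may be partly technical.

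Methylated H3K9 is the mark of silent chromatin. Suv39h1 and Suv39h2 place the trimethyl mark at pericentromeric repeats, where it is bound by the heterochromatin proteins Cbx1, Cbx3 and Cbx5. Setdb1 is brought to retroelements and genes by zinc finger proteins through Trim28 and works with Atf7ip. Ehmt2 (G9a) and Ehmt1 (GLP) form a heterodimer that places mono- and dimethyl marks in euchromatin, with Wiz and Zfp644 as partners. Setdb2 is a smaller relative of Setdb1. It has been studied in interferon responses and in macrophages, where Cxcl1 has been reported as a target, and the title of the series names Smad3, which carries TGF-beta receptor signals to the nucleus, as a target in podocytes.

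Library totals ran from 64816622 to 77417638 counts. Levels are given as CPM, counts scaled to a common library size with TMM factors. The 9 kidney markers, such as Lrp2 of the proximal tubule and Aqp2 of the collecting duct, had counts in every library, with 0 called by edgeR on all libraries and 2 higher and 3 lower without DKD replicate 1, beside 9.67% and 5.84% of all genes. DKD replicate 1 stood apart: its 12 hepatocyte markers summed to 4453 CPM, whereas the sums were 235 and 317 CPM for DKD replicates 2 and 3 and 37.2 to 130 CPM for controls. Ttr made up most of the sum in DKD replicates 2 and 3, at 181 and 257 CPM, and in control replicate 1, at 89.3 CPM. All 12 hepatocyte markers had counts in DKD replicate 1, while 3 to 6 of them were at a count of 0 in each of the remaining libraries. Alb reached 2321 CPM in DKD replicate 1 and 7.20 to 14.7 CPM elsewhere. Macrophage markers summed to 127 CPM in DKD replicate 1, inside the control range of 122 to 142 CPM. In DKD replicates 2 and 3 the sums were 215 and 274 CPM. Most of the sum in DKD replicate 1 was Csf1r, at 89.1 CPM beside 62.3 to 74.1 CPM in controls. Cd68 and Mrc1 also lay above every control in that library, and Adgre1 lay within the control range. Lyz2, C1qa, C1qb and Itgam lay below every control. The part of the hepatocyte and macrophage markers in the results below was not tested. Results on the 6 genes and their pathway are therefore also given without DKD replicate 1 where that changes a call. In whole tissue, fewer cells of a type and less RNA per cell cannot be told apart.

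The start regions of these genes are shown because the Setdb2 region carries 2 gene starts, which bears on the neighbouring genes described later. The regions of Suv39h1 and Uhrf1 are shown because both hold a match to the binding sequence of E2F, the factor family of replicating cells. Each 300-base window lies mostly before a start, on the strand of the gene, and comes from RefSeq (GRCm38.p6, another build than the one named for the counts). Capitals mark matches on either strand to CCAAT, or to the E2F sequences TTTGGCGC, TTTCGCGC, TTTCCCGC and TTTGCCGC. No printed match of one motif overlaps one of the other.
Setdb2, chr14:59440831-59441130, minus strand: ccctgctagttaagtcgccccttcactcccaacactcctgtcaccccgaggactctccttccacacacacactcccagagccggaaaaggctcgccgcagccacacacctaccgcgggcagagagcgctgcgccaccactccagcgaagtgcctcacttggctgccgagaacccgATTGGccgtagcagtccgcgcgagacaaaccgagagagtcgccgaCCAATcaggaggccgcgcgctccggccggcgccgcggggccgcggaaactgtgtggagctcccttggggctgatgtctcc
Setdb1, chr3:95357153-95357452, minus strand: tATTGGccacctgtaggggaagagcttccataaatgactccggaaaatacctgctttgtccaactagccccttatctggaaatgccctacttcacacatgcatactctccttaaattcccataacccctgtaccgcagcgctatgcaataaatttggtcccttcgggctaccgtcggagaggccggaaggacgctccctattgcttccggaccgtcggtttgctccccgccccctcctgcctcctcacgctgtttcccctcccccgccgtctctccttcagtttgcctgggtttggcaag
Suv39h1, second start, chrX:8074312-8074611, minus strand: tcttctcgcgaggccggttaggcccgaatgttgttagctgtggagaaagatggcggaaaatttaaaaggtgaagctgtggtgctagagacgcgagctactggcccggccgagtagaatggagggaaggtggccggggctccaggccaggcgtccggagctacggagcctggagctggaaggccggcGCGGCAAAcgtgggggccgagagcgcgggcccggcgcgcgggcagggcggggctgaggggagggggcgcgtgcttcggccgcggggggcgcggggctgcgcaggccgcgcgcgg
Uhrf1, second start, chr17:56304063-56304362, plus strand: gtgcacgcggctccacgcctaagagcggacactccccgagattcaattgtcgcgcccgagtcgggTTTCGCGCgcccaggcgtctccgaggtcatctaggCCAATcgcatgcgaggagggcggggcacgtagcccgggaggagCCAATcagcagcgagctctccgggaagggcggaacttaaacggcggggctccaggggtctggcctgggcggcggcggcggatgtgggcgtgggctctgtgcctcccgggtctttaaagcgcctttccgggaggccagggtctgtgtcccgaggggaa

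The 6 genes had 8 such windows in the table, since Suv39h1 and Ehmt2 have 2 starts each. Among those not printed are the windows of Suv39h2 (chr2:3474937-3475236, minus strand), Ehmt1 (chr2:24919560-24919859, minus strand) and the first start of Ehmt2 (chr17:34898224-34898523, plus strand). The windows held 15 to 40 CG dinucleotides, with a median of 31, beside a median of 7 over all 32851 windows. Setdb1 and the first start of Suv39h1 had the fewest, at 15, and the second start of Ehmt2 the most, at 40. An E2F match was found in 1 of the 8 windows, that of the second start of Suv39h1, and in 2.26% of all windows. A CCAAT match was found in the windows of Setdb1, Setdb2 and the first start of Suv39h1, and in 37.4% of all windows. The interferon response sequence, GAAA with 2 further bases and GAAA again, matched in 0 of the 8 windows and in 3.44% of all windows. A match describes the letters of the window and does not show binding.

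The comparison of DKD with control kidneys asked whether transcripts of these enzymes differ in the diseased kidney. None of the 6 genes passed an adjusted p of 0.05 in the edgeR quasi-likelihood fit, where 0 of all 19197 genes did (0%). At an unadjusted p under 0.05 there were 0 of the 6, beside 19.2% of all genes, and the CPM of the groups overlapped for all 6, whereas they did not overlap for 25.4% of all genes. DESeq2 and limma-voom with sample quality weights called 0 of the 6 as well, where they called 9.11% and 17.7% of all genes (6.22% and 9.94% higher, 2.89% and 7.75% lower). Without DKD replicate 1, edgeR called 15.5% of all genes (9.67% higher, 5.84% lower) and again 0 of the 6. The median log2 difference was 0.00 over the 6 genes and 0.02 over all genes. Setdb2 had the widest difference, larger in size than that of 67.4% of all genes, and the differences of the other 5 were larger in size than those of 11.2% to 22.6% of all genes.

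**Figure D1:**
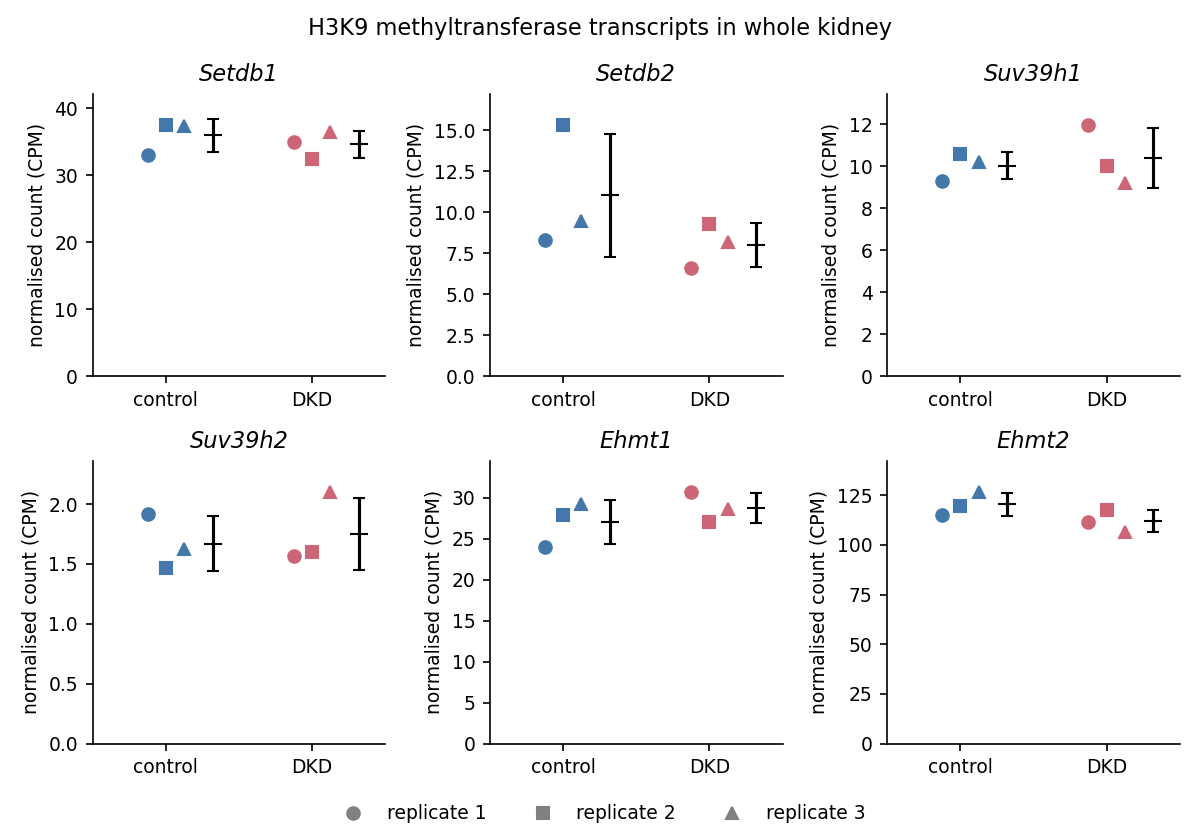
Normalised counts (CPM, vertical axis from 0, scaled per gene) of the 6 H3K9 methyltransferase genes in control (blue) and DKD (red) kidneys; each symbol is a library, numbered by shape, and the black mark beside each group is its mean ± SD (n = 3). The groups overlap for every gene, and control replicate 2 stands above the other libraries for Setdb2, at 15.3 CPM.

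Setdb2, the gene of the series title, was at 8.28, 15.3 and 9.45 CPM in control replicates 1 to 3 and at 6.62, 9.25 and 8.15 CPM in DKD replicates 1 to 3. The highest value was that of control replicate 2, the lowest that of DKD replicate 1, and the groups overlapped, since DKD replicate 2 lay above control replicate 1. These values rest on 492 to 1011 counts, which gives a counting error of 3.15% to 4.51%, while the controls had a coefficient of variation of 34.2% and the DKD libraries 16.5%. The interval of control replicate 2 from counting alone (exact Poisson, 95%) ran from 14.4 to 16.3 CPM and reached no other library. The DKD level was 0.727 times the control level (95% interval 0.474 to 1.12), a log2 difference of -0.46 ± 0.26 (SE, n = 3 per group; adjusted p = 0.373 with edgeR). All 3 DKD libraries were below the control mean. One library carried most of this difference: without control replicate 2 it was -0.15 (adjusted p = 0.753 with edgeR), and with each of the other libraries left out it ran from -0.63 to -0.35. The interval still holds a level lower by more than a factor of 2 and a small increase. These libraries therefore do not exclude a moderate decrease of Setdb2 in whole kidney.

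**Figure D2:**
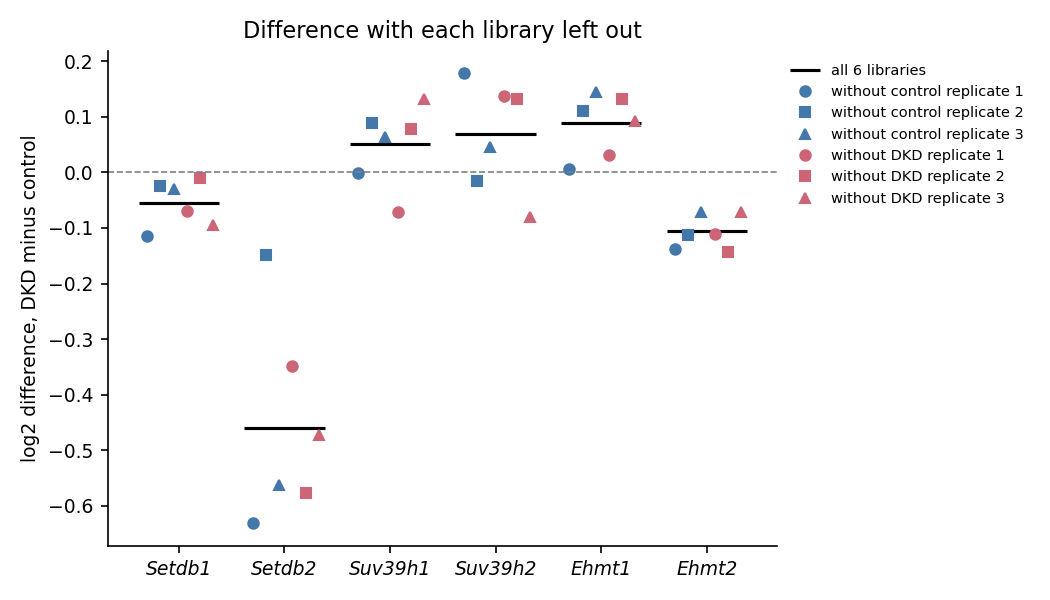
Log2 difference between DKD and control kidneys (vertical axis) for each methyltransferase gene, with all 6 libraries (black line) and with each library left out in turn (colour for the group and shape for the replicate number of the library left out). The widest move is that of Setdb2, from -0.46 to -0.15 without control replicate 2.

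Setdb1, which silences retroelements, was at 33.0, 37.5 and 37.3 CPM in control and at 34.9, 32.4 and 36.4 CPM in DKD replicates 1 to 3. Control replicate 1 and DKD replicate 2 were the lowest, and the groups lay on top of each other. The DKD level was 0.963 times the control level (95% interval 0.826 to 1.12; adjusted p = 0.777 with edgeR). Its sign turned with library size alone as the scaling. Each library held 1962 to 3093 Setdb1 counts.

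Suv39h1, a founding member of the family, was at 9.31, 10.6 and 10.2 CPM in control and at 12.0, 10.0 and 9.20 CPM in DKD replicates 1 to 3. DKD replicate 1 was the highest of all libraries and DKD replicate 3 the lowest, so the DKD range enclosed the control range. DKD exceeded control by 0.05 ± 0.15 on the log2 scale (SE; adjusted p = 0.876 with edgeR), and the difference was -0.071 without DKD replicate 1 and turned sign without control replicate 1 as well. The sum of the 14 cell cycle markers was also highest in DKD replicate 1, at 128 CPM, though Mcm2 was not. The sums were 98.5 and 108 CPM for DKD replicates 2 and 3 and 66.6 to 68.6 CPM for controls. Whether these markers bear on Suv39h1 was not tested.

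Suv39h2, the paralog best known from testis, had the lowest level of the 6. It was at 1.92, 1.47 and 1.62 CPM in control and at 1.56, 1.60 and 2.10 CPM in DKD replicates 1 to 3, with DKD replicate 3 above all others. With 97 to 178 counts per library its counting error was 7.50% to 10.2%, the largest among the 6. The log2 difference was 0.07 with a 95% interval of -0.56 to 0.69 (adjusted p = 0.906 with edgeR), and its sign turned without control replicate 2 or DKD replicate 3. Exons of Suv39h2 overlap those of Dclre1c on the other strand in the GENCODE annotation, and exons of Setdb1 overlap those of Cers2. The strand setting of the counting is not stated, so reads from the shared bases cannot be assigned with certainty.

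Ehmt1 was at 24.0, 27.9 and 29.2 CPM in control and at 30.7, 27.0 and 28.6 CPM in DKD replicates 1 to 3. Only control replicate 1 fell outside the range of 27.0 to 30.7 CPM spanned by DKD. On the log2 scale DKD differed by 0.09 ± 0.11 (SE; adjusted p = 0.680 with edgeR), with a 95% interval of the fold from 0.892 to 1.27, and by -0.0052 with weighted limma-voom.

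Ehmt2, its partner in the heterodimer, was at 115, 119 and 126 CPM in control and at 111, 118 and 107 CPM in DKD replicates 1 to 3. DKD replicates 1 and 3 were below every control, and DKD replicate 2 lay between controls 1 and 2. The DKD level was 0.929 times the control level (95% interval 0.804 to 1.07; adjusted p = 0.543 with edgeR), and the sign of the difference turned with library size alone as the scaling. It is the most precisely counted of the 6, at 6852 to 9070 counts.

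Levels of different genes were compared per kilobase of exon, with exon lengths of 4.05 to 8.12 kb from GENCODE M21 on the GRCm38 build. On that scale Ehmt2 led at 21.9 ± 1.02 CPM per kb in control and 20.4 ± 1.01 in DKD kidneys (SD, n = 3), followed by Setdb1 at 5.24 ± 0.367 and 5.05 ± 0.296. Ehmt1 came next at 3.33 ± 0.337 and 3.54 ± 0.226 CPM per kb, then Setdb2 at 2.72 ± 0.932 and 1.98 ± 0.327, Suv39h1 at 1.90 ± 0.124 and 1.97 ± 0.270, and Suv39h2 at 0.379 ± 0.0517 and 0.397 ± 0.0679. Ehmt2, Setdb1 and Suv39h2 kept their places in every library. Ehmt1 and Setdb2 overlapped, since Setdb2 was above Ehmt1 in 1 library, and so did Setdb2 and Suv39h1, which changed places in 1 library. Of the summed CPM of the 6 genes, which was 192 to 214 in control and 191 to 198 in DKD libraries, Ehmt2 made up 55.8% to 60.1%. Setdb2 made up 3.36% to 7.22%.

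Ratios between relatives within a library do not depend on the scaling between libraries. The log2 ratio of Setdb1 to Setdb2 counts was 1.99, 1.29 and 1.98 in control and 2.40, 1.81 and 2.16 in DKD replicates 1 to 3, a difference of 0.37 (exact permutation test, two-sided, p = 0.4, adjusted p = 0.6 over 3 ratios). It was highest in DKD replicates 1 and 3, and control replicate 2 had the lowest ratio, without which the difference was 0.14. That of Ehmt2 to Ehmt1 was 2.27, 2.10 and 2.11 in control and 1.86, 2.12 and 1.90 in DKD libraries, a difference of -0.20 (exact permutation p = 0.3, adjusted p = 0.6). Here DKD replicates 1 and 3 were below every control and DKD replicate 2 was not. The ratio of Suv39h1 to Suv39h2 differed by -0.02 (exact permutation p = 0.9, adjusted p = 0.9) and changed sign with single libraries left out. With 3 libraries against 3 the smallest p this test can give is 0.1.

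Proteins that carry or load the mark were compared next, from a list of 13 partners and cofactors, all of which were tested. With edgeR 0 of the 13 passed the threshold over all genes (0%), and the median log2 difference was -0.01, beside 0.02 for all genes. The CPM of the groups did not overlap, with DKD higher, for 5 of the 13, Uhrf1, Chaf1a, Atf7ip, Daxx and Atrx, beside 13.8% of all genes, and with DKD lower for Trim28, beside 11.5%. Trim28 had a fitted log2 difference of -0.07, whose sign turned with library size alone as the scaling. Without DKD replicate 1, 3 of the 13 rose in the edgeR test (Uhrf1, Chaf1a and Atf7ip), where 9.67% of all genes were called higher. The same 3 were called by DESeq2 and by weighted limma-voom, which reuse these libraries. Of the partners named in the background, Atf7ip was thus called in these fits, and Trim28, Wiz and Zfp644 in none of them. Morc2a was not called either.

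Uhrf1, which binds methylated H3K9 and hemimethylated DNA at replication forks, was at 1.21, 0.864 and 1.92 CPM in control and at 4.35, 4.80 and 6.23 CPM in DKD replicates 1 to 3. Every DKD library was above every control. On the log2 scale the groups differed by 1.94 ± 0.34 (SE; adjusted p = 0.103 with edgeR, and 0.0125 without DKD replicate 1). Chaf1a, the large subunit of the assembly factor that deposits histones behind the fork, was at 6.61, 6.03 and 5.18 CPM in control and at 9.97, 10.3 and 10.3 CPM in DKD libraries. The DKD values lay close together and well above the controls, with a log2 difference of 0.78 ± 0.15 (SE; adjusted p = 0.103 with edgeR, and 0.0267 without DKD replicate 1). Both genes are used in DNA replication. The cell cycle markers Cdk1, Mcm3 and Top2a differed by 1.91, 1.43 and 1.74 on the log2 scale (adjusted p = 0.103 each with edgeR, and 0.0105, 0.0108 and 0.00853 without DKD replicate 1). Of the 14 cell cycle markers edgeR called 0 on all libraries and 9 higher without DKD replicate 1, beside 9.67% of all genes, and the summed cell cycle markers, given above, did not overlap between groups. The part of dividing cells in the Uhrf1 and Chaf1a values was not tested. An exact match to the E2F sequences searched was found at the second start of Uhrf1, as printed above. None was found at the first Uhrf1 start or that of Chaf1a. The search allowed no differing base, so the absence of a match does not show that a site is lacking. The part of E2F in these values was not tested.

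Atf7ip, the protein that stabilises Setdb1 in the nucleus, was at 21.4, 26.8 and 27.4 CPM in control and at 28.8, 40.7 and 43.9 CPM in DKD replicates 1 to 3. DKD replicate 1 was just above the controls and the other DKD libraries well above them. The log2 differences were 0.58 ± 0.18 with all libraries (SE; adjusted p = 0.164 with edgeR) and 0.74 without DKD replicate 1 (adjusted p = 0.0127). Setdb1 itself differed by -0.05 in the same libraries. The summed macrophage markers, given above, were also higher in DKD replicates 2 and 3 than in replicate 1, though Csf1r was lower there. The part of these markers in the Atf7ip values was not tested.

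**Figure D3:**
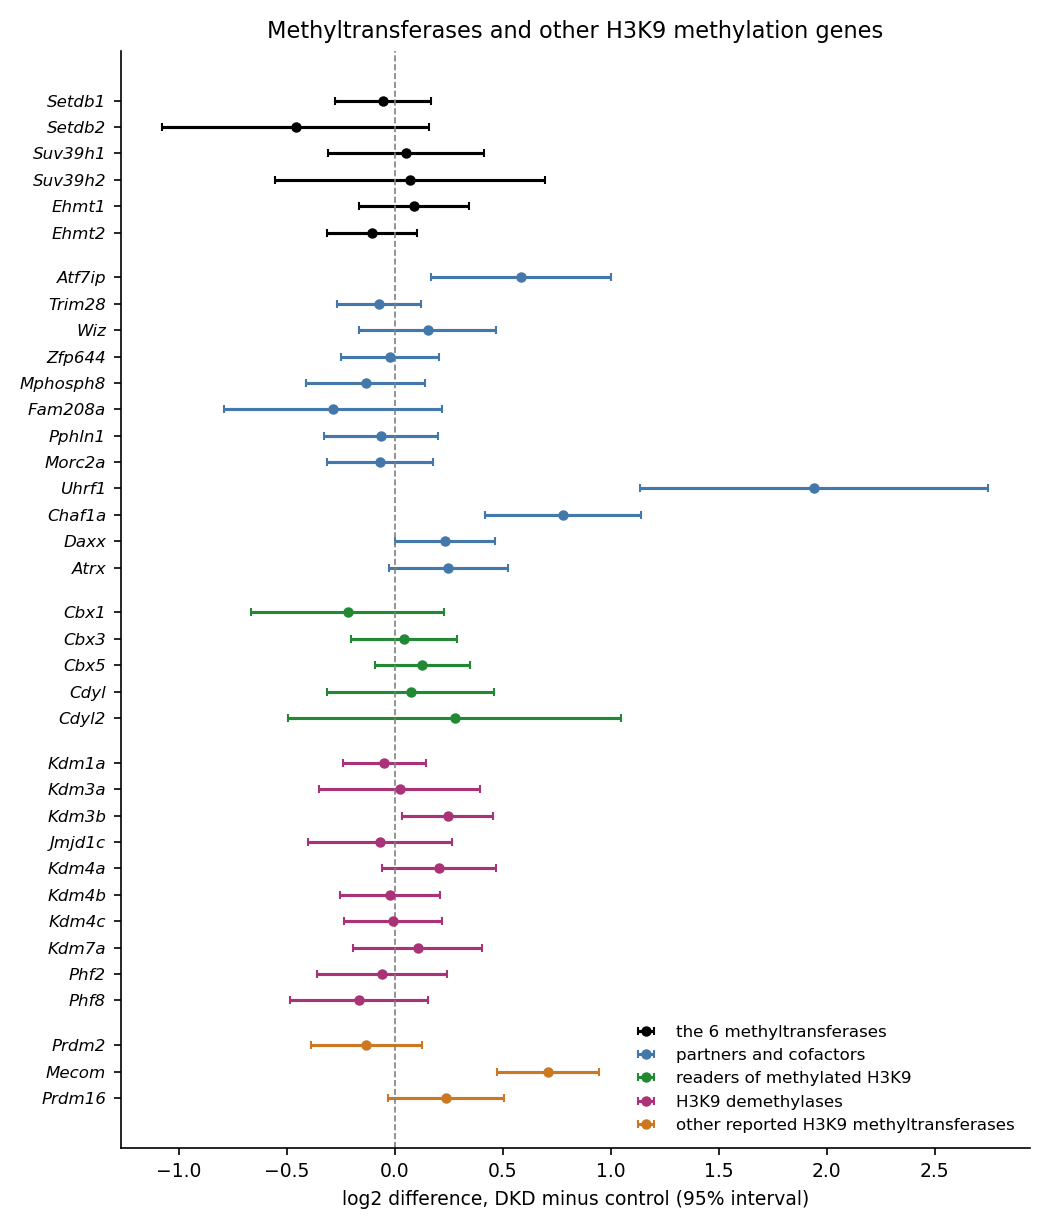
Log2 difference between DKD and control kidneys (horizontal axis, point) with its 95% interval from the edgeR fit (bars) for the 6 methyltransferases and the tested genes of 4 lists of the H3K9 methylation pathway. Atf7ip2 is left out for its very wide interval, and Uhrf1 and Mphosph8 are drawn once. All 6 methyltransferase intervals cross 0, while those of Uhrf1, Chaf1a, Atf7ip, Daxx, Kdm3b and Mecom lie above it.

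The readers of the mark were 7 genes, with 0 called by edgeR (0%) and a median log2 difference of 0.07. Cbx5, which encodes heterochromatin protein 1 alpha, averaged 78.4 ± 5.56 CPM across controls and 85.7 ± 4.50 CPM across DKD libraries (SD, n = 3), and Mphosph8, of the silencing complex that works with Setdb1, averaged 18.0 ± 0.997 and 16.4 ± 1.53 CPM. Uhrf1 was the only 1 of the 7 readers whose groups did not overlap, beside 13.8% of all genes with DKD higher. It also stands among the partners above. The groups of Cbx5 and of Mphosph8 overlapped.

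Demethylases that remove the mark had small differences. Of 11 listed genes 10 were tested, 0 were called by edgeR (0%), and the median was -0.02, with a range of -0.17 to 0.24. Kdm3b, a demethylase of mono- and dimethylated H3K9, was at 42.2, 42.0 and 46.7 CPM in control and at 48.9, 54.7 and 51.4 CPM in DKD libraries. Kdm3b was the only 1 of the 10 whose groups did not overlap, beside 13.8% of all genes with DKD higher. Its log2 difference of 0.24 ± 0.09 (SE) had an adjusted p of 0.210 with edgeR. The next smallest p-values belonged to Kdm4a (0.20 ± 0.11) and Phf8 (-0.17 ± 0.14), whose groups overlapped.

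Among PRDM family members reported to methylate H3K9, 0 of 3 were called by edgeR (0%), with a median of 0.24. Mecom was at 31.7, 34.5 and 32.3 CPM in control and at 47.8, 58.0 and 55.2 CPM in DKD libraries, all above the controls, with a 95% interval of the log2 difference from 0.47 to 0.94. Mecom passed the edgeR threshold without DKD replicate 1 (adjusted p = 0.00381), where 9.67% of all genes were called higher. On all libraries it was called by DESeq2 (adjusted p = 6.3e-06) and by weighted limma-voom (adjusted p = 0.0124). These fits called 6.22% and 9.94% of all genes higher. Prdm16, whose groups did not overlap either, differed by 0.24 ± 0.11 (adjusted p = 0.300 with edgeR), and Prdm2 by -0.13 ± 0.11 (log2, SE). Groups thus lay apart with DKD higher for 2 of the 3, beside 13.8% of all genes.

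**Figure D4:**
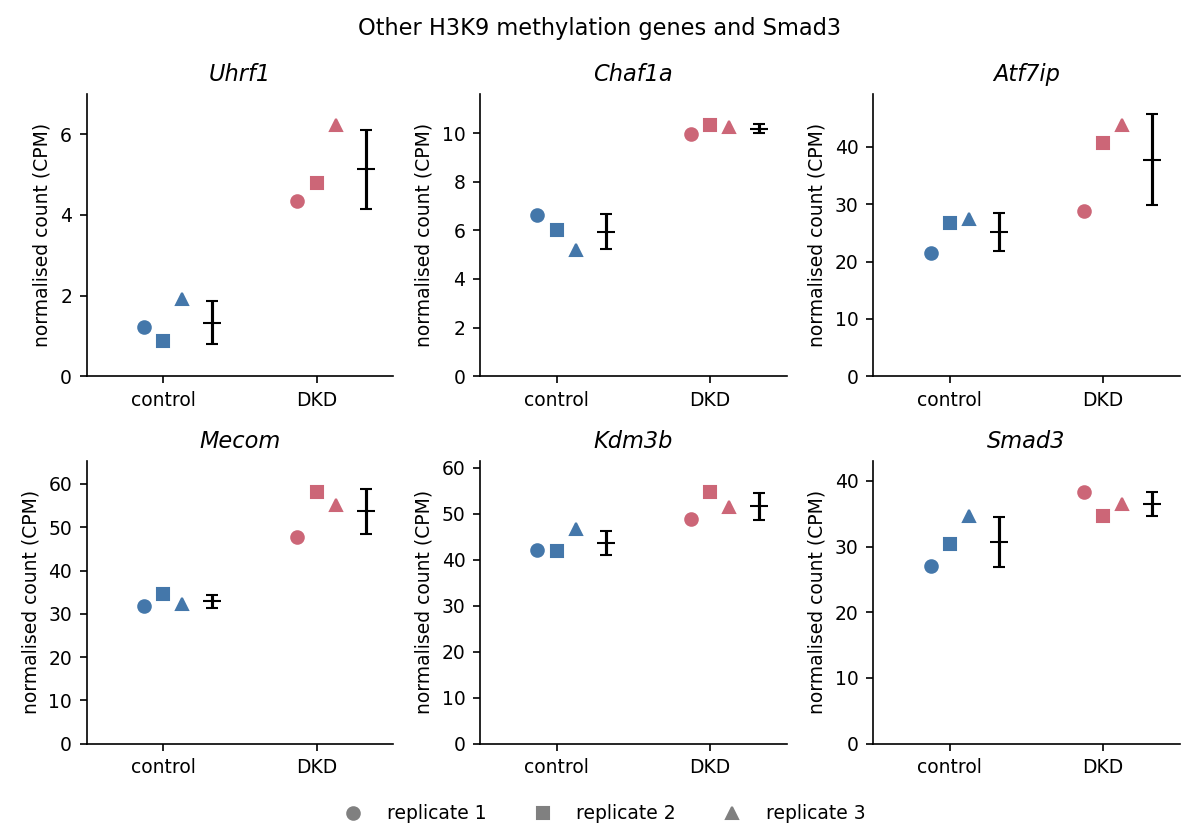
Normalised counts (CPM, vertical axis from 0, scaled per gene) of 5 other genes of the H3K9 methylation pathway and of Smad3 in control (blue) and DKD (red) kidneys; symbols are libraries, numbered by shape, and black marks are mean ± SD (n = 3). For each of the 6 genes all DKD libraries lie above all controls, as they do for 13.8% of all genes. The 5 pathway genes were picked for groups that did not overlap, and listed genes with overlapping groups are not drawn. For Smad3 the lowest DKD library and the highest control nearly touch.

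Genes reported as Setdb2 targets were 7, of which 6 were tested and 0 were called by edgeR (0%). Smad3 was at 27.1, 30.5 and 34.6 CPM in control and at 38.3, 34.7 and 36.5 CPM in DKD replicates 1 to 3. The highest control and the lowest DKD library differed by less than their counting error, and the log2 difference of 0.25 had a 95% interval of -0.02 to 0.51 (adjusted p = 0.280 with edgeR). In DKD replicate 1 Smad3 was highest and Setdb2 lowest. In DKD replicate 2, the highest of the DKD libraries for Setdb2, Smad3 was close to that of control replicate 3. In control replicate 2, the highest of all libraries for Setdb2, Smad3 lay between the other controls. Whether Setdb2 bears on Smad3 was not tested. The 7 podocyte markers summed to 219 to 272 CPM in control and to 311 to 410.0 CPM in DKD libraries, 6 of them with groups that did not overlap, beside 13.8% of all genes. Among these markers edgeR called 0 on all libraries and 4 higher without DKD replicate 1, beside 9.67% of all genes. DESeq2 and weighted limma-voom each called 5 higher on all libraries, beside 6.22% and 9.94% of all genes. The part of the podocyte markers in the Smad3 and Mecom values was not tested. Cxcl1, a neutrophil chemokine, was at 0.606, 0.985 and 0.889 CPM in control and at 0.630, 2.27 and 3.20 CPM in DKD libraries. DKD replicate 1 was at the control level and the others above it, and the gene passed the threshold only without DKD replicate 1 among the fits run (log2 difference 1.72, adjusted p = 0.0173 with edgeR). Xdh, xanthine dehydrogenase, differed by 0.22 ± 0.28, and Insig2, which holds back sterol synthesis, by -0.08 ± 0.08 (log2, SE), with DKD libraries below all controls but a sign that turned with library size alone. Il1b differed by 0.09 ± 0.81, with a sign that changed between fits, and Tnf by 1.59 ± 1.41 at 0 to 0.597 CPM. Il6 was at 0 counts in 4 libraries and at 4 counts in DKD replicates 2 and 3.

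Germline genes that H3K9 and DNA methylation keep silent in somatic tissue remained near the floor. Of 10 listed genes 1 was tested, Ddx4, at 0.0987 to 0.623 CPM in control and 0.171 to 0.306 CPM in DKD libraries. In each library 7 to 9 of the 10 were at 0 counts, where a count of 0 allows up to 3 counts, or 0.0353 to 0.0505 CPM. Summed over the list, control libraries held 0.324 to 0.667 CPM and DKD libraries 0.407 to 0.480 CPM, so the DKD range lay inside the control range.

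In the gene order of RefSeq, Setdb2 is flanked by Cab39l, which is read in the opposite direction, and by the Phf11 genes, which follow on the same strand. These neighbours were chosen after the results of the series were known. The Setdb2 window printed above shares 182 bases with that of the first Cab39l start and contains that start. Cab39l, a scaffold for the kinase Stk11, was at 77.9, 65.3 and 65.0 CPM in control and at 67.3, 80.4 and 73.8 CPM in DKD libraries. It did not share the high Setdb2 value of control replicate 2, and its groups overlapped (log2 difference 0.09 ± 0.11, SE; adjusted p = 0.690 with edgeR). Phf11c, the nearest of the Phf11 genes, was at 3.48, 5.29 and 5.32 CPM in control and at 3.39, 4.62 and 5.73 CPM in DKD libraries, with overlapping groups. RefSeq lists a transcript that reads from Setdb2 into Phf11c, and its reads could be counted under either.

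Phf11d, the next gene, was at 2.68, 2.98 and 4.20 CPM in control and at 6.34, 10.7 and 12.6 CPM in DKD libraries. All DKD libraries were above all controls, by 1.59 ± 0.31 on the log2 scale (SE; adjusted p = 0.103 with edgeR). Phf11b was at 1.66 to 2.09 CPM in control and at 1.08, 5.06 and 4.19 CPM in DKD libraries, so that DKD replicate 1 lay below the controls. Phf11 genes have been reported among those that respond to interferon. In the same libraries the interferon response genes Isg15 (2.42 ± 0.40), Usp18 (2.16 ± 0.42) and Ifit3 (1.55 ± 0.27) had higher fitted levels in DKD (log2, SE; adjusted p = 0.103 each with edgeR), and edgeR called 10 of 11 such genes higher without DKD replicate 1, beside 9.67% of all genes. The 8 lymphocyte markers summed to 10.4 to 13.6 CPM in control and to 10.5, 38.4 and 42.1 CPM in DKD replicates 1 to 3, and their part was not tested. Setdb2 was not among the genes higher in DKD in any fit run. Reads may be shared between Phf11 copies, so the values of single Phf11 genes are uncertain.

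**Figure D5:**
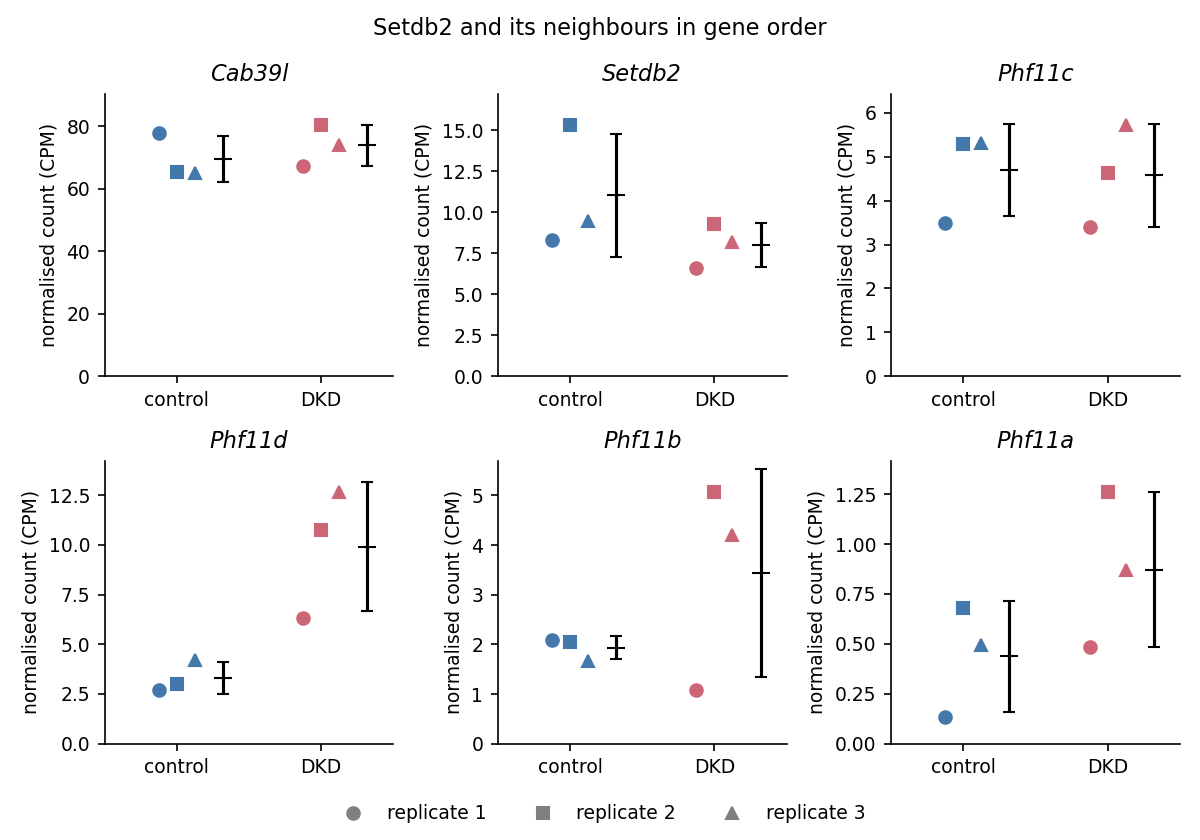
Normalised counts (CPM, vertical axis from 0, scaled per gene) of Setdb2, of Cab39l on its one side and of the Phf11 genes on its other side, in control (blue) and DKD (red) kidneys; symbols are libraries, numbered by shape, and black marks are mean ± SD (n = 3). Only Phf11d has all DKD libraries above all controls, beside 13.8% of all genes.

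The genes whose log2 CPM followed each member most closely over the 6 libraries were listed as a description among 14676 genes with a mean of at least 1 CPM. With so few libraries many genes reach such values, and all share the same libraries and scaling. For Setdb2 they were Itfg2 (Pearson r = 0.984), Lekr1 (r = 0.983) and the H3K9 demethylase gene Phf8 (r = 0.983). All 3 were highest in control replicate 2 and lowest in DKD replicate 1, as Setdb2 was. Phf8 was at 16.3, 20.3 and 16.8 CPM in control and at 14.3, 17.3 and 15.8 CPM in DKD libraries. For Setdb1 the closest were B230219D22Rik, Gm14117 and Mier1 (r = 0.981 to 0.990), for Suv39h1 they were Tpbg, Ccdc103 and Hist2h2be (r = 0.988 to 0.994), and for Suv39h2 they were Slc45a3, Atp1b3 and Gm7324 (r = 0.981 to 0.998). For Ehmt1 they were Plekhh1, Ivns1abp and Grn (r = 0.984 to 0.998), and for Ehmt2 they were Cacnb4, AC133509.1 and Rnf227 (r = 0.974 to 0.983). Among the 6 members themselves the highest correlation was 0.668, between Suv39h1 and Ehmt1, and the lowest was -0.769, between Suv39h1 and Suv39h2.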

How the data were processed

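The deposited table holds whole-number gene counts for 3 control and 3 DKD kidneys, from poly(A) RNA libraries with a strand mark per the labels' protocols. The submitters' processing notes name fastp, HISAT2, StringTie, edgeR and the GRCm39 build. Roles, versions, annotation and strand setting are not stated there. Symbols came from GENCODE M21, which matched 55141 of 55401 IDs, with Tasor under its older symbol Fam208a.

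In R 4.3.3, edgeR 4.0.16 was fitted to the whole table (robust quasi-likelihood, two-sided, TMM factors, default low count filter), with Benjamini-Hochberg adjustment over 19197 genes and a threshold of 0.05. SEs and 95% intervals come from the same statistic. Log2 CPM used a prior count of 2, ratios of counts a prior of 0.5, and exact permutation tests SciPy 1.17.1. Alternatives were other scalings and filters, a fit that was not robust, a replicate block, DESeq2 1.42.0, limma-voom (limma 3.58.1) with and without weights, and leaving out each library. Counting intervals and floors (3 counts) cover counting error only, since reads carry no molecular identifiers.

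The members, lists and tests were chosen with earlier results of these data known. The rule for named genes took all 6 members, Smad3, all reported Setdb2 targets, up to 3 genes of each list with the smallest edgeR p, and the 3 genes most like each member. Others were chosen after their values were seen, such as Daxx, Atrx, Trim28, Wiz, Zfp644, Morc2a and the neighbours of Setdb2, and examples are printed of those the rule takes. One marker gene of the kidney and podocyte lists is not reported here and was left out of their sums.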

Additional observations from a re-analysis of the deposited data

How the results depend on the processing

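No alternative run called any of the 6 methyltransferases. With edgeR, 0 of all genes passed the threshold on all libraries (3694 at an unadjusted p under 0.05), and 1749 passed with DESeq2, 3397 with weighted limma-voom, 0 without weights, 4 with no filter and 0 to 3101 with each library left out, the last without DKD replicate 1. The Setdb2 difference stayed below 0 in all 16 alternatives (-0.63 to -0.15; adjusted p = 0.229 to 0.753). Library size alone moved the median of all genes from 0.02 to 0.17 and turned the sign of Setdb1 (0.095), Ehmt2 (0.044), Mphosph8 (0.016), Prdm2 (0.023) and Insig2 (0.068), and weighted limma-voom that of Suv39h1 (-0.056) and Ehmt1 (-0.0052). The cause was not tested. With each library left out, Suv39h1 ran from -0.071 to 0.13, Suv39h2 from -0.080 to 0.18, Il1b from -0.70 to 0.61 and the Suv39h1 to Suv39h2 ratio from -0.20 to 0.20. Il1b was at -0.52 with unweighted limma-voom. The replicate block gave -0.42 for Setdb2 (adjusted p = 0.255), -0.34 for Il1b and 0 calls. Same-numbered libraries correlated at 0.02 to 0.03, each best with its own number. Values this small do not decide whether the numbers mark pairs. The labels name no pairs, so the main fit used none. At 97 to 178 counts per library, Suv39h2 had the largest counting error of the 6 genes (7.50% to 10.2%), below its spread between libraries (13.7% and 17.1%).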
